A study of Homo sapiens with 6 samples.

Results

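Polyadenylated 3′ ends were mapped in 10 rapidly induced genes of IMR-32 cells: the AP-1 genes FOS, FOSB, JUN, JUNB and JUND, the related ATF3, the zinc finger genes EGR1 and KLF6, IER2, and MYC. A peak was counted as a member when its summit lay in the Gencode body of a gene, or up to 4000 bp past its 3′ end. This rule took 33 of the 200023 peaks in the list, between 1 and 9 for each gene. IMR-32 is an established human neuroblastoma cell line with amplified MYCN. Poly(A) 3′-seq was performed on 6 samples in 3 groups of 2 biological replicates: the DMSO solvent control, a 2 h and a 6 h exposure to THZ531, both at 400 nM. The compound covalently inhibits CDK12 and CDK13, kinases of transcribing RNA polymerase II, and the libraries were made to ask where transcripts end when they are inhibited. All 6 samples are the same line and the labels name no engineered allele, so they stand for 1 cell line.

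The deposited peaks come from a single call on merged reads, which are assumed to be those of all 6 libraries, and the list has no strand. No gene therefore has a value for a single sample, no DMSO sample could be compared with a THZ531 sample, and no replicate error exists. Every value below belongs to the pooled libraries.

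Immediate early genes are switched on within minutes of a growth or stress signal, by transcription factors that are already present in the cell, and are switched off again soon after. Most are short, and many of their mRNAs carry AU-rich elements in the 3′ UTR, which bring in proteins that speed up decay. Where cleavage and polyadenylation take place therefore sets both whether the mRNA is complete and which of these elements it keeps.

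The 10 genes differed in where their peaks lay. The tallest peaks, in EGR1, JUNB, JUN and IER2, lay at or across the annotated transcription end site (TES). In FOS, JUNB, JUND and EGR1 further peaks lay past the last annotated end. KLF6 and MYC had several sites along 1 long 3′ UTR, and ATF3 had most of its peaks inside introns. FOSB had none at an annotated end.

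The height of a peak is given as reads at the summit, the number of reads (each extended to 100 bp) over its highest base. It was recovered from the deposited fold enrichment and −log10 p. The peak caller keeps at most 1 read per position and strand, so that a summit cannot exceed 200 reads and tall peaks are compressed. Intervals in parentheses are exact 95% Poisson intervals. They cover counting error only, and they do not stand for replicates. They take no account of the limit of 1 read per position and strand, so that those of tall peaks are approximate. Reads near a peak are the reads the caller kept in the 10000 bp around the summit, on both strands. These windows overlap between sites of the same gene.

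Of the 33 member peaks, 12 had their summit at an annotated transcript end and 6 past the last end, while 8 were intronic and 7 exonic. A summit counted as at a transcript end from 200 bp before to 600 bp after any annotated end of the gene, and as past the last end from 600 to 4000 bp beyond it. The same classes over 185623 pairs of a peak and a protein-coding gene held 16.7% transcript-end, 9.04% exonic, 69.4% intronic and 4.90% past-end peaks. Most members are short, 9 of 10 being under the 13.8 kb that bounds the shortest length quartile of detected genes. Member peaks had a median of 42 reads at transcript ends against 17 over all such pairs, 20 against 15 in exons, 23.5 against 10 in introns and 33 against 18 past the last end. At −log10 q of at least 5, which was the study's cutoff, 29 of the 33 remained. Most of the whole list passed as well, as 21.5% of all peaks lay below 4.55 and 33.2% below 5.28.

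At least 1 transcript-end peak was present in 8 of the 10 genes, all but FOSB and JUN. Such genes are called detected, and they made up 67.4% of the 20033 protein-coding genes. The tallest transcript-end peak reached 92 reads (74.2 to 112.8) in EGR1, 78 (61.7 to 97.3) in JUNB and 60 (45.8 to 77.2) in IER2. KLF6 had 47 reads (34.5 to 62.5), FOS 45 (32.8 to 60.2) and JUND 43 (31.1 to 57.9). ATF3 followed with 22 reads (13.8 to 33.3) and MYC with 9 (4.1 to 17.1). The intervals of neighbours in this order overlapped, while that of EGR1 lay above those of KLF6, FOS, JUND, ATF3 and MYC.

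**Figure D1:**
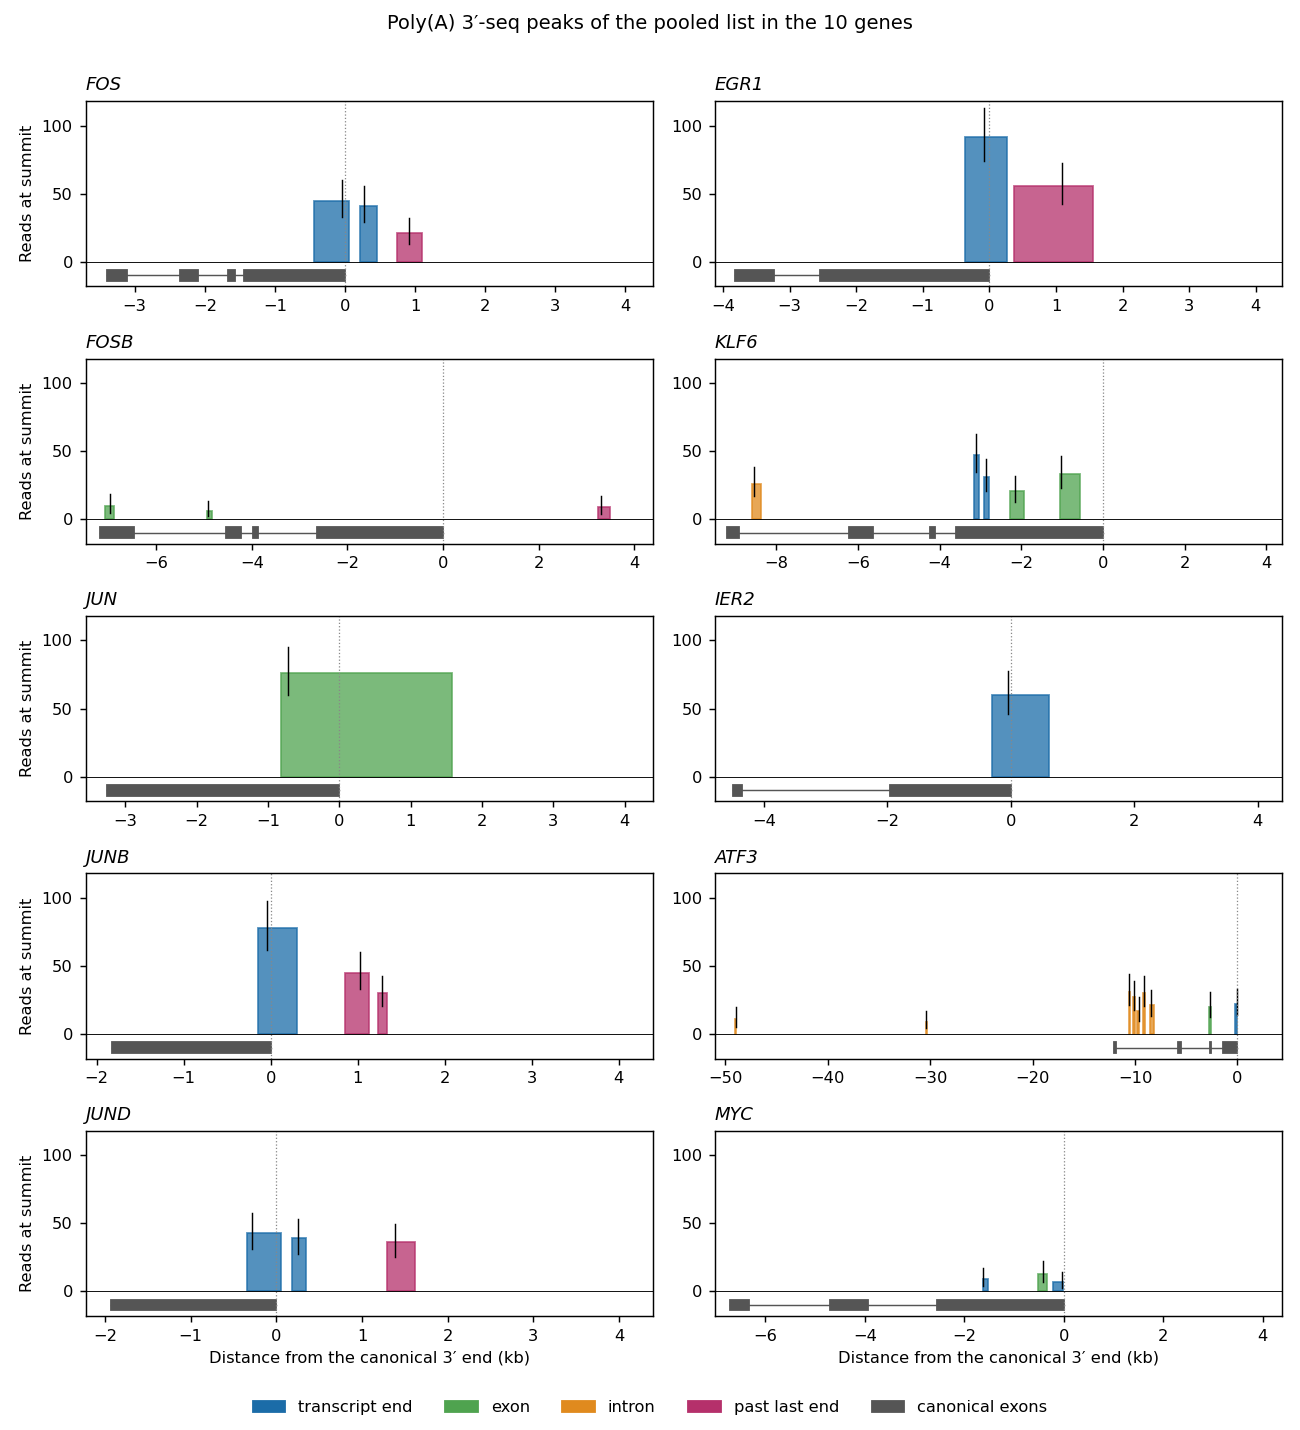
Peaks of the pooled list in the 10 genes, by distance from the canonical 3′ end (x axis, kb, in the direction of transcription) and reads at the summit (y axis). Each bar spans 1 peak, its colour gives the class, the black line at the summit is the 95% Poisson interval, and grey boxes are canonical exons; the x scale differs between genes. The JUN bar is 2397 bp wide, and the bars of FOS, JUNB, JUND and EGR1 run on to the right of the annotated end.

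A median detected gene had 24 reads at its tallest transcript-end peak. EGR1 stood higher than 99.8% of detected genes, JUNB than 99.2%, IER2 than 96.5%, KLF6 than 89.3%, FOS than 87.5% and JUND than 85.7%. ATF3 stood higher than 42.3% and MYC than 7.14%. Thus 6 of the 8 detected members were above the median and 4 were in the top 10%, which began at 47 reads. With ties this group held 1445 of the 13510 detected genes, and KLF6 lay at its bound. The KLF6 peak lies by A-rich sequence, and that of JUNB within a gene on the opposite strand, as described below. The median of these 8 shares was 88.4% by reads, and 41.3% by the authors' fold enrichment, which divides by the local background.

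**Figure D2:**
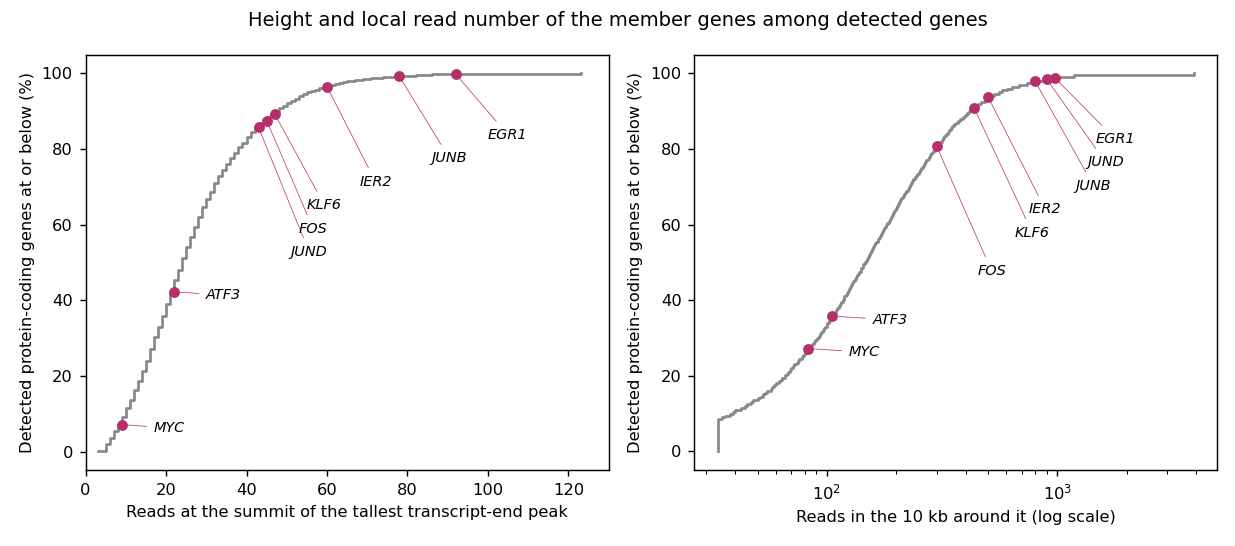
Cumulative share of 13510 detected protein-coding genes (y axis, %), with the 8 detected members as points. The left panel is by reads at the summit of the tallest transcript-end peak. The right panel (log scale) is by the most reads in the 10000 bp around any transcript-end peak of the gene. For JUND that is its second peak, with 897 reads, not its tallest, with 873. EGR1, JUNB and IER2 lie near the top of both curves, JUND near the top of the right one, and MYC low on both, at 9 reads and 83 reads.

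FOS encodes the AP-1 subunit c-Fos, which binds DNA as a dimer with a JUN protein. It lies on chromosome 14, 75278826 to 75282230, plus strand (all coordinates GRCh38, Gencode release 44). Its 3 peaks all fell at the 3′ end. The first, 494 bp wide, had 45 reads and ended 56 bp past the canonical end. The second had its summit 279 bp past that end, with 41 reads (29.4 to 55.6). The third lay beyond the last annotated end, with its summit 919 bp past it and its far edge 1103 bp past it, and had 21 reads (13.0 to 32.1). The interval of the last lay below that of the first. No other annotated gene lay in the window past FOS.

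In QuantSeq REV libraries a read starts at the cleavage site, so that site lies at the downstream edge of a narrow peak, termed its 3′ edge. The 30 bases that end at the annotated FOS end and at the 3′ edges of its first 2 peaks are shown, with hexamers of the polyadenylation signal (PAS) in capitals. These peaks are 494 and 249 bp wide, so that their edges need not be cleavage sites. The summit of the first lay 38 bp before the annotated end.
FOS annotated end (chr14:75282201-75282230, plus strand): tgtcAATAAAagcatttaagttgaatgcga
FOS first peak (chr14:75282257-75282286, plus strand): aagtcttgtaagtttctgaaaggtattatt
FOS second peak (chr14:75282658-75282687, plus strand): tgagcaaattgaagaatggttagAATAAAc
The annotated end had AATAAA at a distance of 26 bases. For the first peak the same hexamer lay 82 bases before the edge, and the second peak had another AATAAA only 7 bases before its edge.

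FOSB encodes a second FOS protein and lies on chromosome 19, 45467995 to 45475179, plus strand. All 3 of its peaks were low and lay inside ERCC1, a DNA repair gene on the opposite strand. The first, in the first exon 206 bp from the canonical start, had 10 reads (4.8 to 18.4). The second, in the first canonical intron, had 6 reads (2.2 to 13.1). The third, whose summit was 3298 bp past the FOSB end, had 9 reads (4.1 to 17.1) and lay 351 bp inside the annotated 5′ end of ERCC1. As the list has no strand, none could be given to FOSB rather than ERCC1, and no peak lay at the FOSB end, although AATAAA is present there.
FOSB annotated end (chr19:45475150-45475179, plus strand): tgttgccAATAAAaagctcttaaaaacgca

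JUN encodes c-Jun, the main partner of the FOS proteins, and its canonical transcript has a single exon (chromosome 1, 58776845 to 58784048, minus strand). It had 1 peak, at 58779212 to 58781608. With 2397 bp this was the widest of all 200023 peaks, the next being 2102 bp. The summit had 76 reads (59.9 to 95.1), with 1334 reads in the 10000 bp around it. The peak covered the last 818 bp of the canonical transcript and 1579 bp beyond its end. A longer annotated transcript of the gene runs on past this edge. The summit lay 722 bp before the canonical end, so that the peak was classed as exonic although it spans the TES, and JUN did not count as detected. With any base of the peak in the window in place of the summit, a setting chosen after seeing the data, 9 genes had a transcript-end peak.
JUN annotated end (chr1:58780791-58780820, minus strand): cttgtcacAATAAAtgtattcaaataccaa

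JUNB, whose protein competes with c-Jun for FOS partners, is another single-exon gene (chromosome 19, 12791486 to 12793315, plus strand). Its transcript-end peak of 452 bp had 78 reads and ended 304 bp past the annotated end. A second peak, 1033 bp past the end, had 45 reads (32.8 to 60.2), and the last, 1281 bp past it, had 30 (20.2 to 42.8). All 3 summits lie within the span of HOOK2 on the opposite strand, so that without strand none could be given to JUNB with certainty. The window past JUNB also holds PRDX2 on the opposite strand and an unnamed gene on the same strand. The edge of the second peak is shown because it lay in A-rich sequence, with 23 A in 25 bases within 50 bp of it.
JUNB annotated end (chr19:12793286-12793315, plus strand): taAGTAAAaaaaaaattggttctttattaa
JUNB second peak (chr19:12794413-12794442, plus strand): aaaaacaaACTAAAacaaacaaaaaaaaaa
The oligo(dT) primer of these libraries can also pair with such genomic A runs, and their part in this peak was not tested.

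JUND, the JUN gene that is expressed most steadily in resting cells, is a single-exon gene on chromosome 19, 18279694 to 18281622, minus strand. Its first peak had 43 reads, its summit 38 bp past the end of a shorter annotated transcript, and ended 50 bp past the canonical end. The second, 254 bp past the canonical end, had 39 reads (27.7 to 53.3). The third, 1385 bp past it, had 36 (25.2 to 49.8), and its far edge lay 1619 bp past the end with no other gene in the window. These 3 heights did not differ beyond their intervals. JUND was also the only member without any of the 12 PAS hexamers in the last 50 bases before its canonical end, and its second peak had TATAAA 17 bases before the edge.
JUND annotated end (chr19:18279694-18279723, minus strand): ctggcgggctgggcggggcctggttcgctt
JUND second peak (chr19:18279347-18279376, minus strand): gtttgcctgtccgTATAAAatggggagaac

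EGR1 encodes a zinc finger activator driven by serum response factor, and lies on chromosome 5, 138465479 to 138469303, plus strand. Its transcript-end peak was 635 bp wide with 92 reads, and ended 264 bp past the annotated end. A further peak began after it, was 1188 bp wide and had 56 reads (42.3 to 72.7), its summit 1086 bp and its far edge 1559 bp past the end. The intervals of the 2 heights did not overlap. No other gene lay in this window, and no PAS hexamer lay in the 100 bp before either 3′ edge.
EGR1 annotated end (chr5:138469274-138469303, plus strand): cttccaaaaaATTAAAacgaaAATAAAgta

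IER2, a small nuclear protein gene of the serum response (chromosome 19, 13150411 to 13154911, plus strand), had a single peak. It was 916 bp wide with 60 reads, its summit 48 bp before the annotated end and its far edge 616 bp past it.
IER2 annotated end (chr19:13154882-13154911, plus strand): gaaAATAAAaaccatttgAGTAAAaaagcc

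The 5 genes with a peak past the last end were FOS, FOSB, JUNB, JUND and EGR1, against 30.8% of all protein-coding genes. FOSB aside, these were 4 of the 8 detected members. Such a peak was found in 36.3% of all detected genes, in 49.3% of those in the shortest length quartile and in 57.2% of those that were both short and in the top 10% of height. The members' share was near this background. A 3′ edge at least 600 bp past the canonical end was reached in 5 of the 8 (FOS, JUNB, JUND, EGR1 and IER2), against 43.9% of all detected genes, 53.3% of short ones and 63.2% of short ones in the top 10% of height. Among the 6 members with no other gene in the window, of which JUN was not detected, 3 had a peak there (FOS, JUND and EGR1), against 41.5% of detected short genes with a clear window, and 54.4% where these were also in the top 10% of height.

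Of the 33 member peaks, 4 were over 500 bp wide: those of JUN and IER2 and both of EGR1. The whole list had 1537 such peaks, or 0.768%. At a transcript end, 2 of the 8 detected members (EGR1 and IER2) had such a peak, against 3.91% of detected genes and 16.3% of those in the top 10% of height. A wide peak does not mark 1 cleavage site, because many read starts are merged in it.

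**Figure D3:**
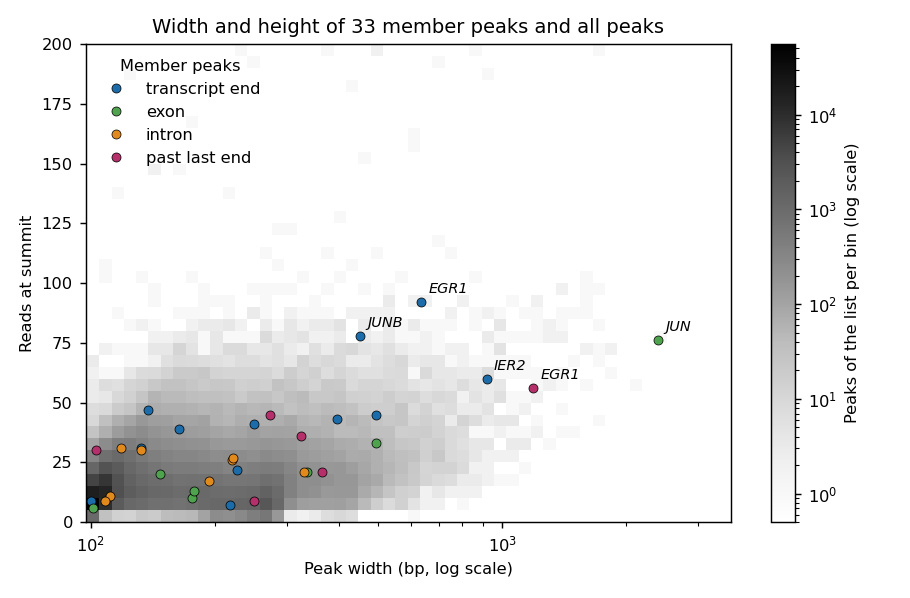
Width (x axis, bp, log scale) and reads at the summit (y axis) of the 33 member peaks, coloured by class, over all 200023 peaks of the list as grey bins (peaks per bin, log scale). JUN lies at the far right at 2397 bp, and both EGR1 peaks and IER2 also lie beyond 500 bp.

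KLF6 encodes a zinc finger protein that binds GC-rich promoters and lies on chromosome 10, 3775996 to 3785281, minus strand. None of its 5 peaks lay at the canonical end, where the sequence carries AATAAA. The tallest, 47 reads (34.5 to 62.5), lay at the annotated end of a shorter transcript, its edge 3032 bp before the canonical end. Next to it was a peak of 31 reads, its edge 2787 bp before the end. Of the 2 further peaks in the 3′ UTR, that with the edge 1933 bp before the end had 21 reads (13.0 to 32.1), and that 562 bp before it had 33 (22.7 to 46.3). The remaining peak, of 26 reads (17.0 to 38.1), lay in the first intron 672 bp from the canonical start. The 3′ edges of the 4 sites in the last exon, sites 2 to 5 in the direction of transcription, are shown because each has a different hexamer, at 31, 29, 20 and 17 bases before it. The printed run of site 2 stops 1 base short of its edge.
KLF6 annotated end (chr10:3775996-3776025, minus strand): ggcagaaAATAAAagatgacatcactgcca
KLF6 site 2 (chr10:3779029-3779058, minus strand): AAGAAAaatcaaaaaaacaaaaaaacaaaa
KLF6 site 3 (chr10:3778783-3778812, minus strand): aAATATAacacaacaatttaacttttcctt
KLF6 site 4 (chr10:3777929-3777958, minus strand): tttcacacatATTAAAgatacagaagtatt
KLF6 site 5 (chr10:3776558-3776587, minus strand): tttattggaataaCATAAAagaattcttat
The tallest of them is A-rich, with 22 A in 25 bases within 50 bp of its edge. Together with the second JUNB peak it was 1 of 2 member peaks with such a stretch on either side of the edge. Over peaks whose protein-coding genes lie on 1 strand, a set without the JUNB peak, the share was 12.7%. The part of the A stretch in the KLF6 peak was not tested.

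ATF3, a stress-induced bZIP factor that can dimerize with JUN proteins, is the longest member (chromosome 1, 212565334 to 212620777, plus strand) and has promoters far apart. Its canonical transcript starts at 212608761. Of its 9 peaks, 7 were intronic. Of these, 2 lay upstream of the canonical start, with 11 (5.5 to 19.7) and 9 reads (4.1 to 17.1) and at most 33 reads in the 10000 bp around them. The other 5 lay in the first canonical intron, 1434 to 3585 bp from the start, with 31, 27, 17, 30 and 21 reads. A further peak in a later exon had 20 reads (12.2 to 30.9). The peak at the canonical end had 22 reads (13.8 to 33.3), and its edge was 1 bp past that end.
ATF3 canonical end (chr1:212620746-212620775, plus strand): tAATAAAtattggaaccaagacatggtaaa
ATF3 site 3 (chr1:212610233-212610262, plus strand): tacaAATAAAatagttACTAAAtccttgat
ATF3 site 6 (chr1:212611674-212611703, plus strand): atgcttagtggaaagaggatgaaaATTAAA
Sites 3 and 6, counted in the direction of transcription and shown because they were the tallest of the intronic group, had 31 and 30 reads (20.2 to 42.8 for the latter), and both had a hexamer close to the edge.

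More reads, counted on both strands, were kept near the canonical ATF3 start than near its end. The window around site 3 also covers bases upstream of that start. Without strand, its reads could not all be given to ATF3 transcripts. The 10000 bp around site 3 held 427 reads (387.5 to 469.5), and those around the canonical end held 105 (85.9 to 127.1). These windows do not overlap, and their intervals are well apart. By the whole gene span of 55.4 kb, the number of intronic peaks in ATF3 was not high. Genes of like span (10 groups of equal size) had a median of 8 intronic peaks and 12 peaks in all. The canonical transcript spans only 12015 bp. The peaks in its first intron were not compared with genes of that length. The heights of the intronic peaks overlapped that at the canonical end.

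MYC, a transcription factor that drives growth and cell cycle genes, lies on chromosome 8, 127735434 to 127742951, plus strand. Its 3 peaks were all low. The first, at the end of a shorter annotated transcript, had 9 reads (4.1 to 17.1), the second, inside the 3′ UTR, 13 (6.9 to 22.2), and the third, 5 bp before the canonical end, 7 (2.8 to 14.4). Their intervals overlapped, so that no site could be called dominant. The third, with a −log10 q of 3.51, was below the study's cutoff. The edge of the first had AATAAA 28 bases before it and the edge of the last 17 bases before it, while the second had no hexamer in 100 bp. The window around the first peak held 83 reads. In the same list MYCN, the paralog that is amplified in this line, had 100 reads at its tallest transcript-end peak.

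For each peak, PAS hexamers were looked for in the 100 bp before its 3′ edge, on the gene strand. The 12 hexamers were the canonical AATAAA and those that differ from it by 1 base: with another first base CATAAA or else GATAAA or else TATAAA, with another second base ACTAAA or else AGTAAA or else ATTAAA, with another base in the middle AAGAAA or else AATGAA, and with another base near the end AATACA or else AATAGA or else AATATA. Matches can overlap in A-rich runs. At least 1 was found for 15 of the 33 peaks, or 45.5% (95% Wilson interval 29.8 to 62.0), and for 15 of 33 on the opposite strand. Over peaks whose genes lie on 1 strand the shares were 59.3% and 40.7%. The shares over all genes given below are over these peaks too. The member counts differ in that they keep the FOSB and JUNB peaks, which lie in genes of both strands. The window ends at the 3′ edge, which need not be a cleavage site in a wide peak. Member peaks had a median width of 221 bp, against 109 bp over all pairs of a peak and a protein-coding gene. With the window ending at the summit, the shares were 33.3% of member peaks and 36.9% over all genes. By class, a hexamer was present for 8 of 12 transcript-end peaks, 3 of 7 exonic, 3 of 8 intronic and 1 of 6 past-end peaks. The shares over all genes were 78.3%, 66.8%, 54.8% and 52.6%. AATAAA alone was found for 8 of 33 peaks (24.2%) and for 5 on the opposite strand (15.2%), against 27.5% and 10.4% over all genes. The last 50 bases before the canonical end held a hexamer in 9 of the 10 genes, and AATAAA in 8. This was not counted over all genes. The window also differs from the 100 bp used for peaks, so the shares cannot be compared.

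A genomic A stretch, 22 or more A in 25 bases within 50 bp downstream of the 3′ edge, which the study used to remove peaks that also lacked a PAS hexamer, was met by 0 of 33 member peaks, a count that allows a share of up to 9.09%, and by 5.06% over all genes. With at least 18 A, the counts were 0 of 33 and 23.4%.

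The pentamer ATTTA, the core of many AU-rich elements, was counted in the annotated 3′ UTR of the canonical transcript, overlapping matches included. A median 3′ UTR, over 18492 genes, had 2. KLF6 and MYC had 6 each, FOS 5, FOSB, JUN and ATF3 3 each, JUNB 2, and JUND and EGR1 1 each. IER2 had none. Per length FOS was the densest, with a number per kb above that of 94.7% of genes, and JUNB followed, above 84.1%. MYC stood above 72.3%, ATF3 above 64.2% and JUN above 61.8%. KLF6, whose 3′ UTR has 3543 bases against a median of 1176, stood above only 51.0%. FOSB stood above 45.4%, JUND above 44.6% and EGR1 above 36.0%.

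KLF6 and MYC had several sites within the 3′ UTR, which keep different numbers of pentamers. A KLF6 transcript that ends at the edge of site 2, 3, 4 or 5 keeps 0, 2, 4 or 6 pentamers. Sites 4 and 5 are 335 and 494 bp wide, so that their edges need not be cleavage sites, and site 2 is the A-rich one. A MYC transcript keeps 4, 5 or 6 at its 3 sites in order. The longer core TATTTAT, present once in the MYC 3′ UTR, is kept only by the site at the canonical end. That site had 7 reads and a −log10 q of 3.51, below the study's cutoff of 5. The edge of the JUN peak lies past 5 pentamers, against 3 up to the canonical end. In FOS, the second peak adds 1 pentamer to the 5 before the annotated end. In EGR1, the edge of the transcript-end peak lies beyond 1 further pentamer, which is part of a TATTTAT. In JUNB and JUND the peaks past the end added none. These counts come from the reference sequence, and a match is not evidence that a protein binds there.

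**Figure D4:**
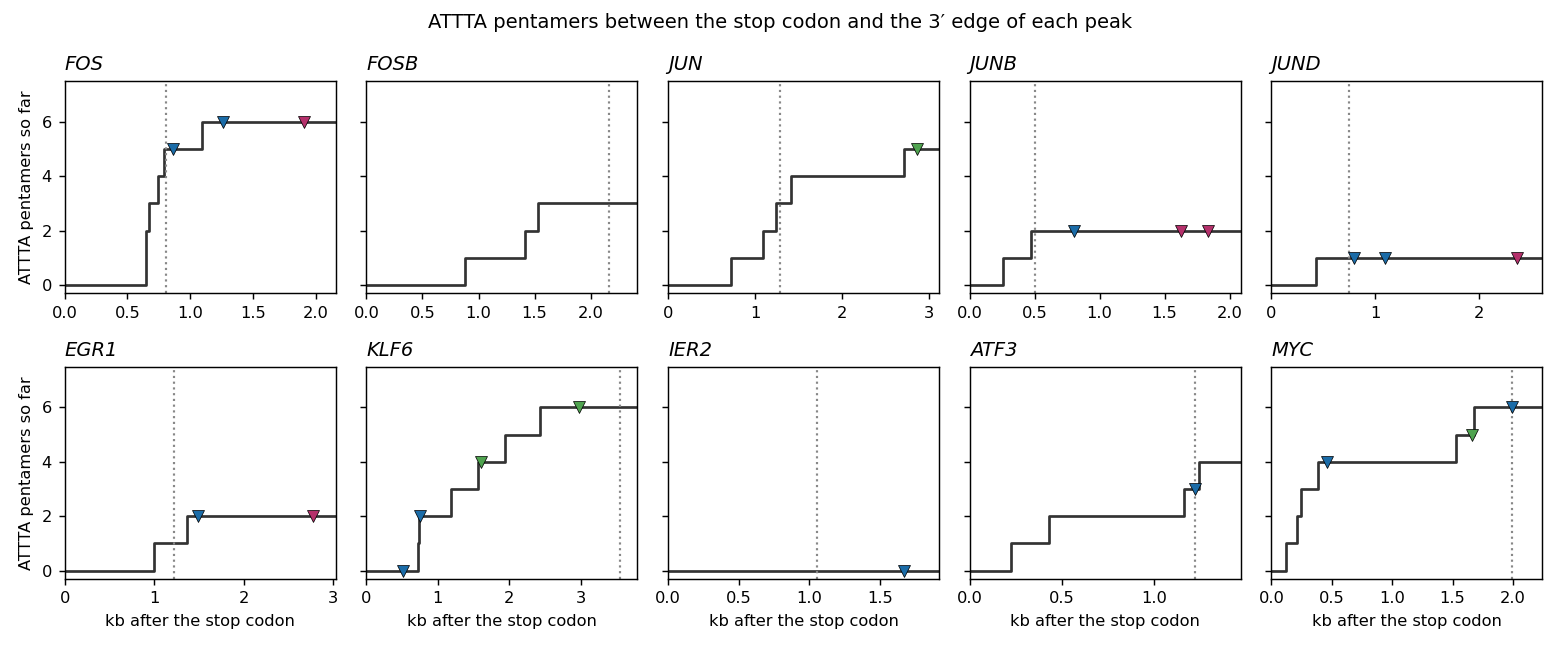
ATTTA pentamers counted from the stop codon (y axis) along the genome in the direction of transcription (x axis, kb), with a triangle at the 3′ edge of each peak, coloured by class as in the map of the 10 genes, and a dotted line at the canonical end. The FOSB peak inside the ERCC1 start is left out. The KLF6 triangles climb from 0 to 6 and the MYC triangles from 4 to 6.

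Other genes of the same response gave the setting. Of 30 other immediate early genes, 28 were detected, with a median of 27 reads and a range from 5 to 80. The tallest were IER5 (80 reads), ID1 (77) and IER5L (76), while NPAS4 had no peak and EGR2 only 1 past its end. Past-end peaks were present in 13 of the 21 detected genes of this list in the shortest quartile, beside the 49.3% of all such genes and the 57.2% of those in the top 10% of height. Of 14 other bZIP partners of AP-1, 11 were detected with a median of 22 reads, led by ATF4 (52). All 11 genes of the MYC network were detected, with a median of 33 reads, led by MYCN, MLX (67) and MXD3 (53). All 13 regulators of immediate early transcription were detected with a median of 21 reads, led by SRF (64), MAPK8 (42) and MAPK9 (35). The 8 proteins that bind AU-rich elements had a median of 51.5 reads, led by ZFP36L2 (72), KHSRP (66) and TIAL1 (55). These medians are set against 24 reads over all detected genes.

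As a check of the labelled cell type, all 12 neuroblastoma markers had a transcript-end peak, beside 67.4% of all protein-coding genes. These markers had a median of 66.5 reads and a range from 19 to 123. Of 5 fibroblast markers 4 had a transcript-end peak, at 6 to 19 reads, and DCN had no peak. The highest of these equalled the lowest neuroblastoma marker. Of 5 blood cell markers (4 of leukocytes and the red cell globin gene HBB) only CD79A did, at 14 reads, and CD3E, HBB and LYZ had no peak.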

How the data were processed

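Poly(A) 3′-seq libraries came from 6 IMR-32 samples. As the study's methods state, the authors trimmed 100 bp reads, mapped them to GRCh38 with STAR 2.5.1b, keeping reads with up to 20 placements, merged the samples and called peaks on the merged reads with MACS2 2.1.1. No control library is named. The deposited list gives each peak a fold enrichment (a ratio of pileup to local background), a −log10 p, a −log10 q and a score, which is the scaled −log10 q and was not used. Depth per library is unknown, and no test across samples was possible.

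Pileup and local background were solved from the deposited fold and −log10 p. In simulated peaks, 99.98% of pileups were recovered exactly. In the real list the background was at a floor of 0.337 for 22.2% of peaks and gave a whole number of reads per 10000 bp for 100% of the others. Genes, ends and sequences came from Gencode release 44 and the GRCh38 reference. Scripts used Python 3.11.15, pandas 2.3.3 and scipy 1.17.1. Values were described beside all protein-coding genes, with no p-value. A canonical transcript is the one so tagged in Gencode. Of other genes, at most the 3 tallest of each list are named, plus genes that overlap a member's peak. A gene of these lists is not reported here. NPAS4, EGR2, the marker genes without a peak or with the only one of their list, and MYCN in the MYC paragraph were named after their values were seen. The members and lists were chosen with earlier results of these data known. Alternatives were other cutoffs on −log10 q, other windows, other gene assignments and other motifs.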

Additional observations from a re-analysis of the deposited data

How the results depend on the processing

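No paired analysis was possible because the pooled list has no value for any sample. Of 30 alternatives, 19 kept counts close to those given and shares within their counting intervals. Among these, the hexamer share on the opposite strand is a strand control and says nothing about stability. At −log10 q of at least 20, 8 peaks, 5 genes with a transcript-end peak, 1 gene with a past-end peak and 0 of the 7 peaks in canonical introns remained. Over the whole list, 93.9% of peaks lay below a −log10 q of 20.61. Past-end peaks with the summit in no other gene were left in 3 genes. AATAAA alone marked 24.2% of member peaks. The median share of detected genes with a lower tallest transcript-end peak was 88.4% in the report's setting. It was 41.3% by the authors' fold enrichment, 80.8% within the shortest quartile of genes and 89.4% with 100 bp either side of an end. By the most reads in the 10000 bp around any transcript-end summit of a gene, a setting chosen after seeing the data, it was 92.3%. Fold enrichment divides by the local background. Of TATTTAT there were 8 in the 3′ UTRs, against 30 ATTTA. Any base of a peak in the window, the canonical end alone and the opposite strand were also chosen after seeing the data. Heights of 10 reads or fewer, as in FOSB and MYC, have intervals too wide to order sites.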

Other observations

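The 10 widest peaks of the list included those of JUN (2397 bp), ZFP36L2 (1850 bp, 72 reads), ACTG1 (1743 bp, 97 reads) and RHOB (1727 bp, 69 reads). These were named after their values were seen. The rest of the 10 overlapped other genes or no annotated gene, or lay on the mitochondrial genome. A link of width to the early response was not tested. ZFP36L2 encodes a protein that binds AU-rich elements, ACTG1 a cytoplasmic actin and RHOB a small GTPase whose gene, like JUN, is induced early by growth factors. The JUN window held 1334 reads in 10000 bp, that of ACTG1 2101, that of RHOB 1624 and that of ZFP36L2 968.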
